A study of Drosophila melanogaster with 48 samples.

Results

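Odorant-binding protein (OBP) genes were examined in 48 brain libraries of Drosophila melanogaster. They were taken by gene symbol alone, as every symbol of the count table that starts with Obp and a digit, together with lush and a10, which gave 53 of 16995 genes. OBPs are small secreted proteins that carry hydrophobic molecules. In the antenna they are released by support cells into the fluid around the dendrites of olfactory neurons, where they carry odorants and pheromones. Other members are made in taste organs, in the male reproductive tract, in the fat body and in glia, so the family is not confined to smell. The member a10 belongs to the chemosensory proteins, a separate family of small carriers of the antenna, and is kept here because the rule names it.

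Brains came from the strains w1118 and Tau-KO, from flies labelled female or male, and from a control (Ctrl) and 1, 2 and 4 hr after injury, with 3 libraries in each of the 16 groups. The injury was a single full-body strike of the HIT device, a spring arm that throws a vial of flies against a pad and causes closed head trauma. All groups, the controls included, were also exposed to near-infrared light (NIR) after dissection, so no brain without NIR enters any comparison. In the study's methods this exposure lasted 2 hr on the dissected brains in medium, and RNA was taken after it. The times of 1, 2 and 4 hr thus run from injury to dissection, not to RNA. The study's methods give mated adults of 10 to 14 days for all assays and RNA of 1 brain for each library, naming w1118 alone for the RNA extraction. The deleted part of tau in Tau-KO is not given in the sources used here.

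Counts assigned to genes ranged from 39517 to 1668925 per library, with a median of 582952, and levels are given as CPM (counts scaled to a common library size) after TMM scaling, a correction for differences in library composition. In 16 libraries the most similar other library differed by a chi-square per degree of freedom over 4, a measure that grows with depth, and these libraries are said to stand apart. They were 8 of each strain and 8 of each labelled sex, 5 controls and 11 injured, in 14 of 16 groups. In the other 32 libraries this value was 1.36 to 2.30, where 1 is counting error alone, and 0 of 48 libraries had their nearest library in their own group. The labelled sex could not be read back from the RNA of those 32 libraries. The male-specific RNA roX1 was at 847 to 1025 CPM in 16 libraries labelled female and at 749 to 1208 CPM in 16 labelled male, and the female yolk protein gene Yp1 overlapped likewise. In the 16 libraries that stood apart the labelled sexes overlapped in roX1 too. That RNA was at 53.3 to 1327 CPM in 8 labelled female and at 890 to 1590 CPM in 8 labelled male. Yp1 separated the labels better there, with medians of 1875 CPM in those labelled female and 650 CPM in those labelled male. Its ranges were 447 to 13506 CPM and 335 to 1226 CPM. Only w1118 control female 1 (561 CPM) and Tau-KO control female 2 (447 CPM) lay within the male range. The targeted gene tau was at 62.0 to 200 CPM in w1118 and 91.6 to 256 CPM in libraries labelled Tau-KO, which does not check the label because a 3′ tag may lie outside the deleted part. With values this close, it cannot be told from the counts whether these 32 libraries are independent brains. The p-values over 3 libraries of a group take them as independent, and would be too small if libraries within a group were not. Groups are therefore named below by their labels, and the main results are also given without the 16 libraries. Group sizes are 3 unless libraries are left out. Adjusted p-values are those of edgeR's quasi-likelihood test with Benjamini-Hochberg adjustment over all genes tested.

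The family made up a small and very uneven share of the brain's RNA. Its 145682 reads were 0.267 to 0.546% of the gene counts of a library, and Obp44a and Obp99c together held 84.0% of them. Of the 53 members, 31 had at least 1 read, 21 had reads in at least 24 libraries and 6 had reads in all 48. A library held reads of 9 to 28 members, with a median of 19.5. The summed level of the members had a median of 4896 CPM in w1118 and 4854 CPM in Tau-KO.

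**Figure D1:**
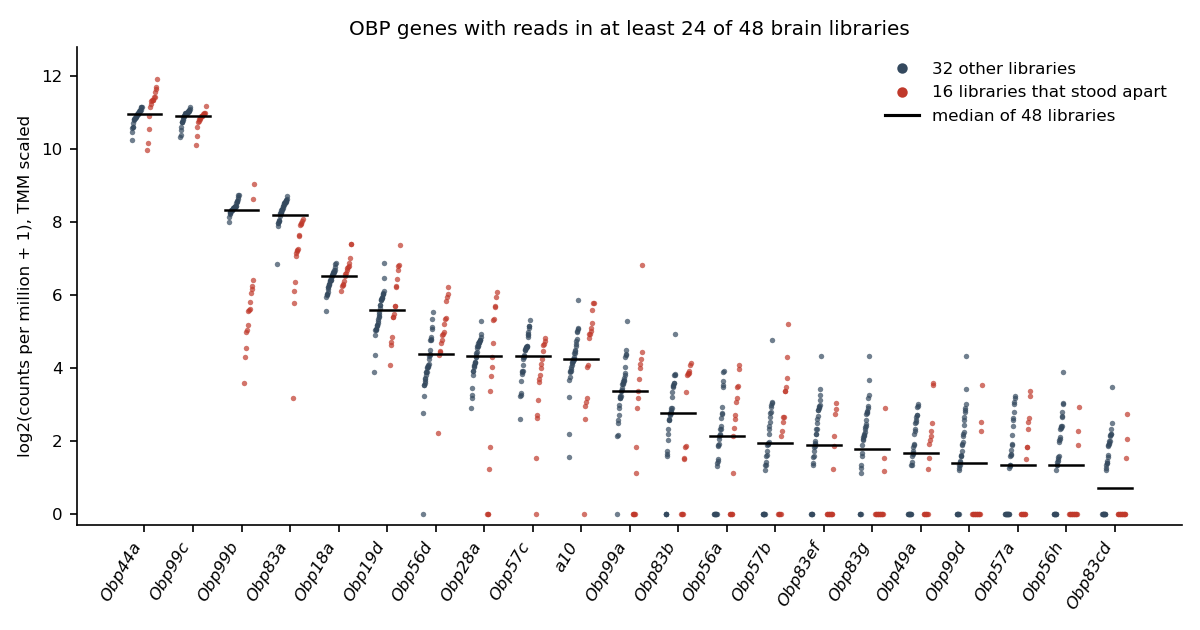
Level of the 21 members with reads in at least 24 libraries, on a log2(CPM + 1) axis, with 1 point per library, red for the 16 libraries that stood apart and dark for the other 32, and a bar at the median of 48. Obp44a and Obp99c lie far above the rest, and the red points of Obp99b and Obp83a reach far below the dark ones.

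Obp44a, a fatty acid carrier of astrocyte-like glia, was the highest member by its median of 2006 CPM, with a range of 1010 to 3871 CPM. Obp99c followed with a median of 1931 CPM and a narrower range of 1110 to 2313 CPM. These neighbours in the order were not separated, since Obp44a was the higher in 29 of 48 libraries. Obp99b, which the fat body of the head makes at a level that depends on sex, had a median of 320 CPM. Obp83a, a protein of the pheromone-sensing trichoid sensilla of the antenna, had a median of 290.2 CPM and could not be told from Obp99b in rank, because Obp99b was the higher in 23 libraries. Obp18a, at a median of 90.7 CPM, was below Obp83a in 44 libraries and above Obp19d, at 47.3 CPM, in 41.

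Below these lay a set of members with similar levels. Obp56d, Obp28a, Obp57c and a10 had medians of 19.7, 19.2, 19.1 and 17.9 CPM, and the first of each neighbouring pair in that order was the higher in 24, 19 and 23 of 48 libraries. Obp99a, a second product of the head's fat body, had a median of 9.35 CPM and Obp83b, which neighbours Obp83a in the genome, 5.77 CPM. The remaining 19 members with reads all had medians of 3.38 CPM or less, and 17 members had between 1 and 99 reads over all libraries. Since 3 reads were worth 2.19 CPM in the deepest-scaled library and 57.6 CPM in the shallowest, a single low value of these members carries little weight.

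Grouped by where they are known to act, the 3 OBPs of glia and fat body (Obp44a, Obp99a and Obp99b) were all detected and all passed the filter on low counts. Of the 9 antennal members, 8 had reads, 4 of them in at least 24 libraries. These were Obp83a, Obp28a, Obp83b and a10. The others were rare, with 72 reads in 23 libraries for Obp19a and none for Obp84a. The pheromone carrier lush, which the response to cis-vaccenyl acetate needs, had 10 reads in 8 libraries, and Obp69a and Obp59a, the latter needed for humidity sensing, had 9 and 1. Of the 4 members of taste organs, Obp49a, which takes part in bitter taste, had 91 reads in 31 libraries, Obp19b had 6, and Obp57d and Obp57e had none. Of the 7 members found in seminal fluid, Obp8a had 68 reads, Obp56e and Obp56g 8 each, and 4 had none. Of the 30 members put in none of these groups, 15 had no read. Obp19d, known from both the antenna and taste organs, is one of the 30 and is not in the antennal counts and sums.

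The 22 members with no read in any library were Obp22a, Obp46a, Obp47a, Obp47b, Obp50a, Obp50b, Obp50c, Obp50d, Obp50e, Obp51a, Obp56b, Obp56c, Obp56f, Obp56i, Obp57d, Obp57e, Obp58b, Obp58c, Obp58d, Obp73a, Obp84a and Obp93a. A count of 0 in 30783888 gene counts allows a level of up to 0.0975 CPM over all libraries, for counting error only. In the BDGP6 annotation, used here for gene order alone, 28 members had another member as the next protein-coding gene, in 20 adjacent pairs. In 10 of these pairs both genes had reads, in 6 neither had, and in 4 only one had. Adjacent members could differ widely. Obp83a had 7523 reads and Obp83b 213, Obp57c had 531 where Obp57b had 142 and Obp57a 74, and Obp19d had 1771 beside 3 for Obp19c. The annotation also has 16 members that overlap another gene, 8 of them with reads. Of the 22 with no read, Obp47b, Obp50b, Obp50c, Obp51a, Obp57d, Obp73a, Obp84a and Obp93a do so. Both highest members are among the 16, Obp44a over Pabp2 (1115 reads) and Obp99c over Gycalpha99B (6535 reads), each on the opposite strand. How the counting treated strand is not given in the sources used here, so reads in the overlaps may have been split or dropped. The bound of 0.0975 CPM does not cover such losses.

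Most odorant receptor genes were not detected. Of 72 other olfactory genes, 49 had no read, among them 48 of 60 odorant receptor genes. Beside the receptors only Gr21a had none. The odorant co-receptor Orco had 44 reads in 22 libraries, with a median of 0 CPM. The summed level of 6 antenna-defining genes (Orco, Snmp1, Ir8a, Ir76b, Jhedup and antdh) had a median of 9.44 CPM and a range of 0 to 42.5 CPM, while the summed antennal members had a median of 342 CPM. Obp83a supplied most of the latter. The odorant-degrading esterase gene Est-6 (median 234 CPM) and Snmp2 (109 CPM), a CD36-type membrane protein, had the highest medians of the 72, followed by Phk-3 (15.8 CPM) and the receptor gene Or63a (4.05 CPM). In a bulk brain sample, fewer cells of a type and less RNA per cell cannot be told apart.

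Obp99b stood at either of 2 separate levels. It was under 100 CPM in 14 libraries and over 250 CPM in 34, with 0 libraries between. All 14 low libraries were among the 16 that stood apart. In w1118 they were control female 1 (22.3 CPM), 2 hr female 3 (34.9 CPM), control male 2 (75.5 CPM), 1 hr male 2 (11.02 CPM), 2 hr male 1 (18.8 CPM) and 4 hr male 1 (30.7 CPM). In Tau-KO they were control female 2 (47.8 CPM), 1 hr female 2 (54.6 CPM), 2 hr female 1 (70.7 CPM), 4 hr female 2 (65.0 CPM), control males 2 and 3 (46.5 and 46.8 CPM), 1 hr male 2 (84.3 CPM) and 4 hr male 2 (31.9 CPM). Low libraries thus occurred in 13 of 16 groups, in both strains, both labelled sexes and at every time. The 32 other libraries held Obp99b between 254 and 431 CPM, and the remaining pair of libraries that stood apart, w1118 females 1 hr 2 and 2 hr 2, held 395 and 522 CPM.

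**Figure D2:**
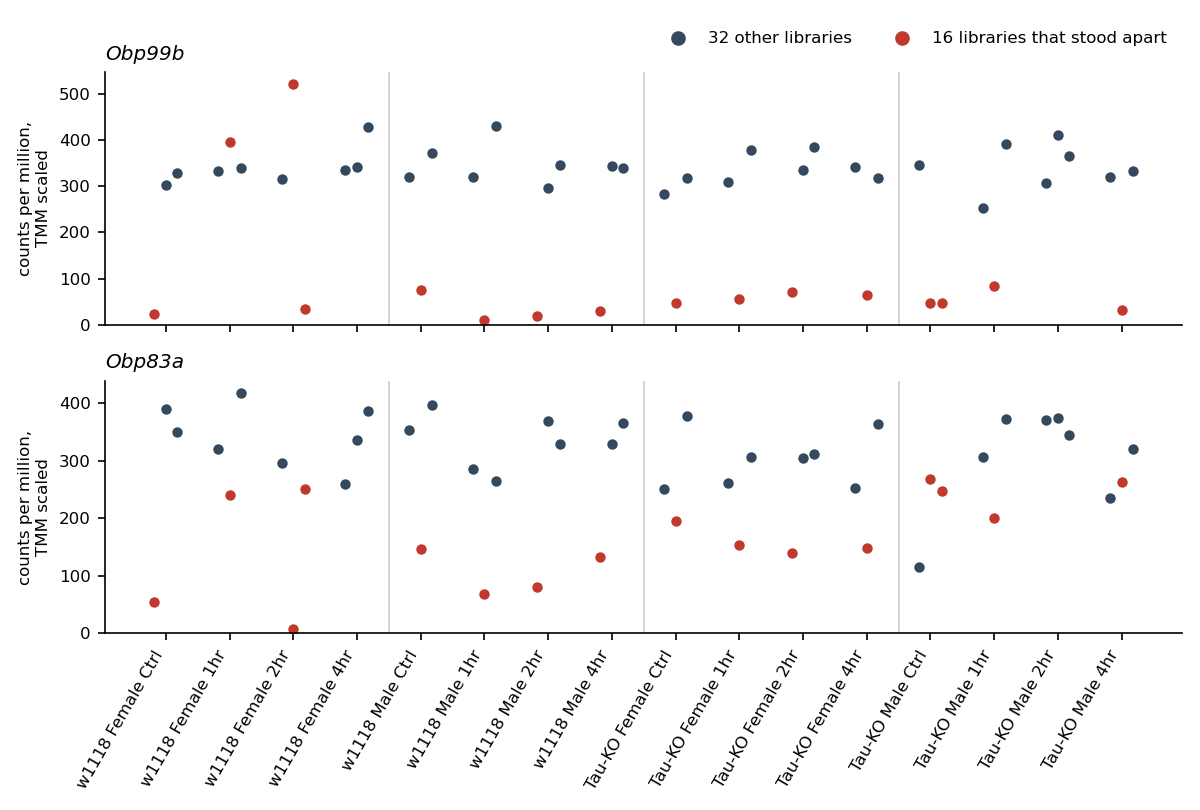
CPM of Obp99b (top) and Obp83a (bottom) in the 3 libraries of each of 16 groups, with red points for the 16 libraries that stood apart and dark points for the other 32. Obp99b has no value between 100 and 250 CPM, and its 14 low points are all red.

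Because the 16 libraries were chosen by their counts over all genes, their difference from the rest is a description with no test. A library that stood apart was below every library of its group that did not in 14 of 16 cases for Obp99b and in 13 of 16 for Obp83a. Such counts within groups were taken for members only, so the share over all genes is not known. The median of Obp99b was 47.3 CPM in the 16 libraries and 335 CPM in the 32, a ratio of 0.141, and 2.15% of 5815 genes had a lower ratio. For Obp83a the medians were 151 and 329 CPM, a ratio of 0.459, below which lay 9.75% of genes. Obp44a, Obp56d and a10 lay the other way, with ratios of 1.32, 1.95 and 1.58. Higher ratios were found in 28.7%, 10.1% and 18.7% of genes. Obp44a was in 12 of 16 cases above every library of its group that did not stand apart. Obp99c (0.928) and Obp18a (1.18) moved less. The summed antennal members had medians of 217 and 375 CPM, beside 9.55 and 9.44 CPM for the antenna-defining genes.

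Among the 32 libraries the main members were close to equal. Beyond counting error, the coefficient of variation of Obp99b was 0.0653 over these libraries and 0.704 over all 48, where the median gene had 0.154 and 0.457. Obp44a had 0.0880, Obp99c 0.0665, Obp83a 0.0926 and Obp18a 0.0443. Obp19d (0.290), Obp56d (0.369) and Obp57c (0.266) varied more than the median gene even there. Summed markers of other tissues had wider ranges in the same 16 libraries, in part through single libraries. Summed fat body markers were at 2682 to 21452 CPM there (all 11 detected) and 6034 to 8103 CPM in the 32, photoreceptor markers (9 of 9 detected) at 2177 to 35135 against 6366 to 8187 CPM, and gut markers (8 of 8) at 61.3 to 10600 against 653 to 1378 CPM. Markers of glia (9 of 9 in the table) were at 1485 to 3132 against 1682 to 2291 CPM. The medians of the 16 and the 32 were 5314 and 7222 CPM for fat body and 4856 and 7559 CPM for photoreceptor markers. They were 1014 and 1094 CPM for gut and 1831 and 1934 CPM for glia. Both ends of the gut range were single libraries, w1118 female 2 hr 2 (61.3 CPM) and w1118 control female 1 (10600 CPM). The part of these tissues in the levels of the members was not tested.

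One library was extreme for several members at once. In w1118 female 2 hr 2, Obp99a was at 113 CPM (155 reads), whereas no other library with over 100000 counts exceeded 21.3 CPM. The same library had the lowest Obp83a (8.03 CPM), the lowest Obp44a (1010 CPM), no read of Obp28a or a10 in 1547843 counts, and the highest Obp99b (522 CPM). Its photoreceptor markers (35135 CPM), fat body markers (21452 CPM) and Yp1 (13506 CPM) were the highest of all libraries, its roX1 (53.3 CPM) and muscle markers (200 CPM) the lowest.

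Whether injury changed the members in w1118 was asked at 1, 2 and 4 hr against the control of each labelled sex. Of 66 member tests (11 members in 6 comparisons), 1 was called, where a call needs an unadjusted p under 0.05 and a change of more than 1 on the log2 scale. This is 1.52% of the member tests, where 1.76% of all gene tests were called. No member passed an adjusted p under 0.05 in edgeR or in DESeq2, nor did any other gene (0% of tests), and 3 member tests had an unadjusted p under 0.05 whatever their fold change. The libraries of injured and control brains did not overlap in 7 of 66 member tests, beside 7% of all gene tests.

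**Figure D3:**
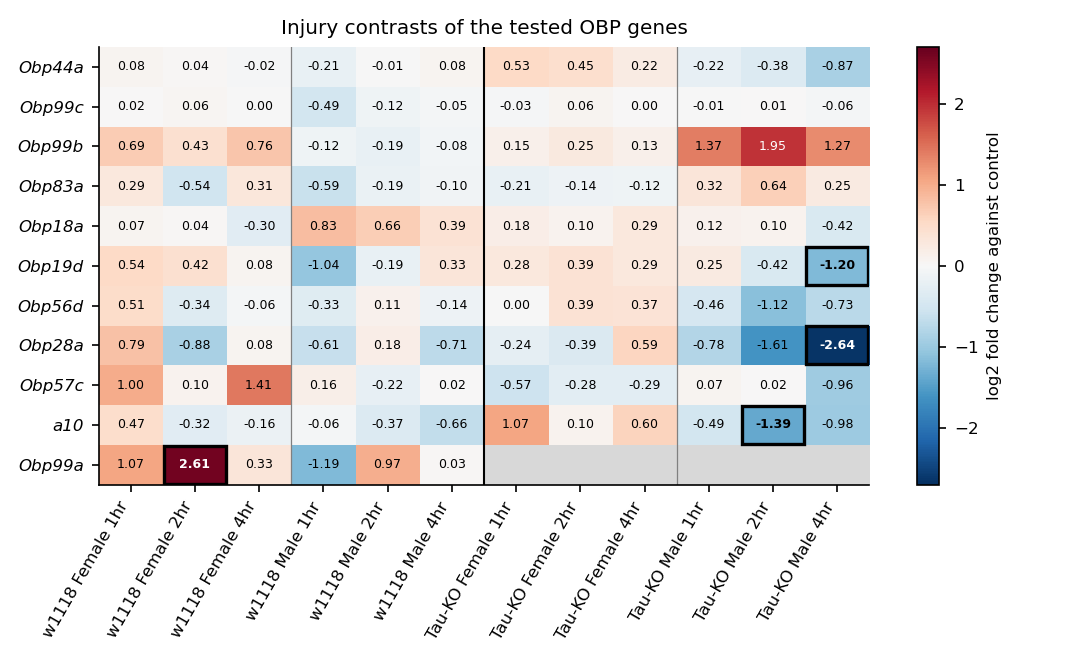
Log2 fold changes against control (number and colour) of the tested members in the 12 injury comparisons, with black frames around calls at an unadjusted p under 0.05 and grey where Obp99a did not pass the filter in Tau-KO. There is 1 frame in w1118 and 3 in Tau-KO, all 3 in columns labelled male.

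The call in w1118 was Obp99a in females at 2 hr, a comparison in which 5.4% of genes were called. Its controls were at 0, 9.36 and 13.4 CPM and the 2 hr libraries at 10.7, 113 and 15.1 CPM. The groups overlapped, and the difference was that of the extreme library described above. The fitted log2 fold change was 2.61 ± 1.01 (SE, adjusted p = 0.613), it was 0.74 with that library left out and 2.04 without control 1, neither of which passed, and -0.07 ± 0.95 (adjusted p = 1) without the 16 libraries, which leaves 1 library at 2 hr.

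Obp18a and Obp99c were the other members past an unadjusted p of 0.05, both in males at 1 hr and both under the fold limit. Obp18a was at 67.1, 68.1 and 82.6 CPM in the controls and at 116, 167 and 83.4 CPM at 1 hr. All 3 injured libraries were above all 3 controls, the lowest by little. The log2 fold change was 0.83 ± 0.33 (adjusted p = 1.0), and 0.53 ± 0.32 without the 16 libraries. At 2 and 4 hr it was 0.66 ± 0.32 and 0.39, and at 4 hr the groups did not overlap either (94.7, 92.5 and 96.5 CPM). Over the 3 times, the averaged difference was 0.62 ± 0.27 (adjusted p = 1.0).

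Obp99c lay lower in the same comparison, at 1774, 1110 and 1348 CPM against 1920, 1921 and 2139 CPM in the controls. The 3 injured libraries were all below the controls, and 1 of them, replicate 3, had 59781 counts. The log2 fold change was -0.49 ± 0.21 (adjusted p = 1.0) and -0.34 ± 0.16 (adjusted p = 0.561) without the 16 libraries.

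Obp57c in females did not overlap at 4 hr. It was at 39.1, 22.0 and 34.2 CPM at 4 hr against 11.2, 18.7 and 5.03 CPM, a log2 fold change of 1.41 that missed the threshold. It was called without the 16 libraries (1.32 ± 0.53, adjusted p = 1.0) and in a fit of the 6 libraries of that comparison alone (1.38 ± 0.57, adjusted p = 0.946). Obp99b in w1118 females was above all controls at 1 hr (333, 395 and 339 CPM) and 4 hr (334, 342 and 429 CPM), with controls at 22.3, 303 and 329 CPM. Only 1 control was low, the library that stood apart, and the log2 fold changes of 0.69 and 0.76 had adjusted p-values of 1.0 in edgeR and were 0.08 and 0.23 without the 16 libraries. The most abundant member, Obp44a, had log2 fold changes between -0.21 and 0.08 in all 6 comparisons.

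In Tau-KO the same question gave 3 calls in 60 member tests (10 members), or 5%, where 6.27% of all gene tests were called. All 3 lay in males, and all 3 were lower than in the control. No member passed an adjusted p under 0.05 in edgeR or in DESeq2, nor did any other gene (0% of tests), and 4 member tests had an unadjusted p under 0.05. Groups did not overlap in 8 of 60 member tests, beside 10.3% of all gene tests.

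Obp28a, a carrier of the antenna's basiconic sensilla, was lower in Tau-KO males at 4 hr, where 18.6% of all genes were called. Its controls were at 38.4, 66.8 and 39.3 CPM (2, 56 and 42 reads) and the 4 hr libraries at 13.1, 0 and 14.1 CPM (2, 0 and 4 reads). The groups did not overlap, nor did they at 2 hr (8.06, 15.3 and 26.3 CPM). The log2 fold change was -2.64 ± 0.97 at 4 hr (adjusted p = 0.123) and -1.61 at 2 hr, and -1.68 ± 0.65 (adjusted p = 0.268) on average over the 3 times, where 9.49% of genes were called. This was the 1 call among 42 member tests of averaged injury, 2.38% beside 3.94% of all gene tests. Without the 16 libraries the value at 4 hr was -1.51 ± 1.33 (adjusted p = 0.753), with 1 control of 2 reads left, and the average was -1.26 ± 1.21 (adjusted p = 0.701). The averaged call was also lost with replicate number 2 left out (-1.28). The call at 4 hr was also lost without control 2 (-2.27) or without 4 hr library 2 (-1.88).

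Obp19d, an OBP of the antenna and of taste organs, was lower in the same comparison. Controls were at 38.4, 51.3 and 74.8 CPM and 4 hr libraries at 19.6, 15.9 and 42.2 CPM, so 1 injured library lay within the range of the controls. The log2 fold change was -1.20 ± 0.50 (adjusted p = 0.157), and -0.23 ± 1.21 without the 16 libraries. It also missed the threshold in the fit of these 6 libraries alone (-1.28 ± 0.63, adjusted p = 0.389) and without control 3 (-0.90), 4 hr library 1 (-1.08) or 4 hr library 2 (-0.87).

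The third call was a10 in Tau-KO males at 2 hr, where 5.48% of genes were called. Its controls were at 57.6, 53.7 and 27.1 CPM (3, 45 and 29 reads) and the 2 hr libraries at 21.5, 15.3 and 14.2 CPM. The groups did not overlap, and the log2 fold change was -1.39 ± 0.60 (adjusted p = 0.686). Without the 16 libraries it was -1.81 ± 1.02, with 1 control of 3 reads left. That control is the library of 39517 counts, which held the highest value. With only this library left out the fold change was -1.26 and no longer passed. The same held without control 2 (-1.09), 2 hr library 2 (-1.31) or 2 hr library 3 (-1.25).

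**Figure D4:**
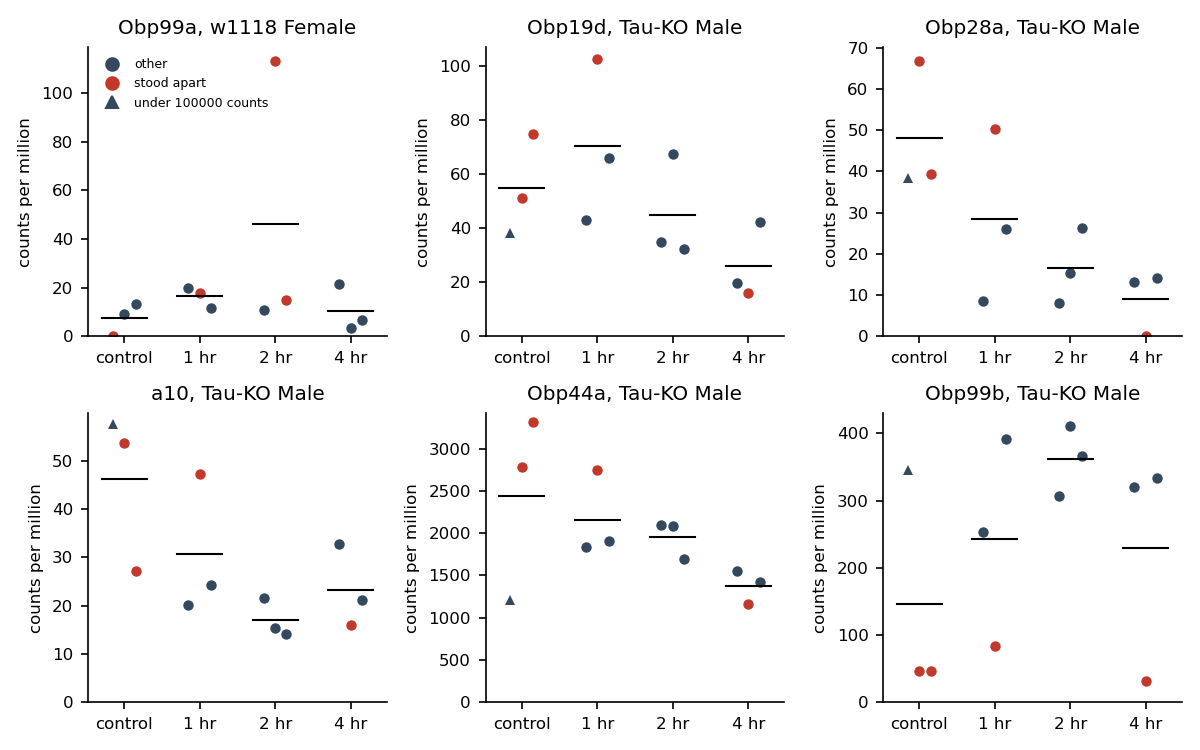
CPM by time of the called members and of Obp44a and Obp99b, with 1 point per library (red, stood apart; triangle, under 100000 counts) and a bar at the mean of 3 libraries. In Tau-KO males 2 of 3 controls are red and the third is the triangle. Among these controls the 2 red ones are the higher for Obp19d and Obp44a and the lower for Obp99b. For Obp28a red control 3 (39.3 CPM) is level with the triangle (38.4 CPM).

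The controls of the Tau-KO males bear on all comparisons of that group. Replicates 2 and 3 stood apart and replicate 1 had 39517 counts, the fewest of all libraries. Obp44a and Obp99b show this most clearly. In these controls Obp44a was at 1211, 2781 and 3313 CPM and at 1551, 1160 and 1420 CPM at 4 hr, so the groups overlapped through replicate 1. Its log2 fold change was -0.87 ± 0.30 (adjusted p = 0.112). Without the library of 39517 counts it was -1.14 ± 0.27 (adjusted p = 0.0244), the 1 member test of injury past an adjusted p of 0.05 in that fit, whereas without the 16 libraries it was 0.26 ± 0.23 (adjusted p = 0.753).

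Obp99b showed the mirror image, at 346, 46.5 and 46.8 CPM in the controls and at 306, 411 and 367 CPM at 2 hr. The log2 fold change of 1.95 ± 0.96 had an unadjusted p of 0.0531 and was not called (edgeR adjusted p = 0.686). It passed in a fit without the filter on low counts (2.00 ± 0.39, adjusted p = 0.000583) and was 2.94 ± 0.94 (adjusted p = 0.28) without the library of 39517 counts, where Obp99b was also called at 1 hr (2.36) and 4 hr (2.25). It was also called with the replicate number as a block (2.14 ± 0.79, adjusted p = 0.647) and in the fit of these 6 libraries alone (2.09 ± 0.65, adjusted p = 0.287). With 9 of 24 single libraries left out it was called at 2 hr, with values from 1.98 to 2.94. Without the 16 libraries it was 0.04 ± 0.37 (adjusted p = 0.974).

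Obp83a was also higher in all 3 libraries at 2 hr (371, 374 and 344 CPM) than in all 3 controls (115, 269 and 247 CPM). The lowest control rested on 6 reads. The log2 fold change was 0.64, and 1.62 ± 0.51 (adjusted p = 0.217) without the 16 libraries, where that library is the only control left and Obp83a was called at all 3 times. Female Tau-KO libraries gave no call, with log2 fold changes of the 10 members between -0.57 and 1.07. The largest of these was a10 at 1 hr, at 26.6, 36.4 and 17.9 CPM against 14.1, 6.82 and 16.8 CPM in the controls, without overlap. Obp57b, which did not pass the filter in the fit of all 24 libraries, was called in females at 4 hr without the 16 libraries (2.94 ± 1.08, adjusted p = 0.999). That value rested on 12 and 4 reads against 1 and 1 in the controls.

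**Figure D5:**
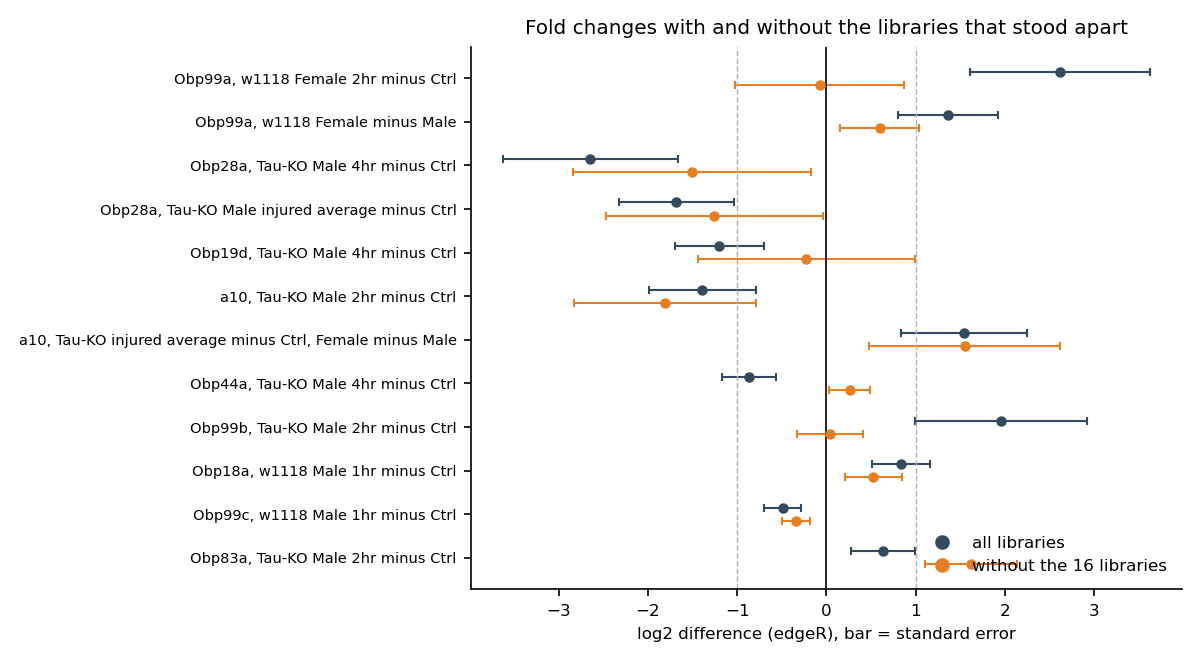
Log2 differences with standard errors of 12 member results in the fits of all libraries (dark) and without the 16 libraries that stood apart (orange), with dashed lines at a fold change of 2 in either direction. Obp99a at 2 hr, Obp99b and Obp44a move to about 0 or across it, while the other results keep their side, Obp19d close to 0.

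Whether the averaged response to injury differed between the labelled sexes was tested as a difference of differences. Of 21 member tests 1 was called, 4.76%, beside 9.65% of all gene tests, and 0 at an adjusted p (0.0191% of all gene tests, as for averaged injury), with 2 at an unadjusted p under 0.05. The call was a10 in Tau-KO (18.4% of genes called), whose averaged difference was 0.59 in females and -0.95 in males. The difference between the sexes was 1.54 ± 0.70 (adjusted p = 0.212) and missed the threshold with the replicate number as a block, where 0 members were called. It was 1.55 ± 1.07 (adjusted p = 0.664) without the 16 libraries. Obp44a differed by 0.89 ± 0.34 in the same direction (adjusted p = 0.161), and by -0.50 ± 0.24 (adjusted p = 0.598) without the 16 libraries.

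Levels of females and males over the 4 times of each strain gave 1 call in 21 member tests, again 4.76%, beside 0.591% of all gene tests. The call was Obp99a in w1118, where 0.31% of genes were called, with a log2 difference of 1.36 ± 0.56 (female minus male, adjusted p = 1.0) that rested on the same extreme female library and was 0.60 ± 0.44 without the 16 libraries. No member passed an adjusted p under 0.05 with either tool, nor did any other gene (0%). Obp99b, the member known for a sex-dependent level, had log2 differences of 0.35 in w1118 and 0.22 in Tau-KO. Within the 16 libraries that stood apart it was at 22.3 to 522 CPM in 8 labelled female and at 11.02 to 84.3 CPM in 8 labelled male. In w1118 alone the log2 difference there was 2.83 ± 0.76 (edgeR unadjusted p = 0.00116, adjusted p = 0.944). It was the 1 call of 12 members, beside 2.14% of genes. The libraries were chosen by their own counts over all genes. Their fit pooled control and injured libraries of all times within each strain and labelled sex. Of the 4 w1118 female libraries in it, 2 carried the difference, at 395 and 522 CPM, and the other 2 were at 22.3 and 34.9 CPM, within the range of the males. In the 32 others the ranges were 282 to 429 and 254 to 431 CPM.

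Between the strains, 0 of 36 member tests were called, beside 1.72% of all gene tests, and 0 at an adjusted p (0%), with 2 at an unadjusted p under 0.05 in edgeR and 0 calls in DESeq2. Log2 differences of Tau-KO minus w1118 lay between -0.74 and 0.51. The member tests past an unadjusted p of 0.05 were both of Obp19d, which was lower in Tau-KO. It had a range of 13.9 to 163 CPM and a median of 57.6 CPM in 24 w1118 libraries, and a range of 15.9 to 103 CPM and a median of 41.8 CPM in 24 Tau-KO libraries. These ranges overlapped widely. The log2 difference was -0.43 ± 0.19 over both sexes (adjusted p = 0.657) and -0.72 ± 0.26 in females (adjusted p = 1.0), and -0.26 ± 0.23 and -0.34 ± 0.25 without the 16 libraries. Obp44a (0.02) and Obp99c (0.04) were nearly equal in the strains.

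The averaged response to injury differed between the strains in 0 of 24 member tests, beside 5.15% of all gene tests, with 0 at an adjusted p (0%), 0 at an unadjusted p under 0.05 in edgeR and 0 in DESeq2. Estimates ranged from -2.65 to 3.20, both of Obp19a, an antennal member with 72 reads in 23 libraries. Of these, 23 were in 1 library, Tau-KO female 2 hr 1 (30.7 CPM), and 10 in another, w1118 male 2 hr 1 (26.8 CPM). Both stood apart.

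Of the other olfactory genes, Est-6, Snmp2 and Phk-3 passed the filter of the 48-library fit. Est-6 was lower in Tau-KO males at 4 hr, with a fitted value of -1.24 ± 0.42 (log2, adjusted p = 0.11), in the comparison with the calls of Obp28a and Obp19d. Its averaged response also differed between the sexes in Tau-KO, by 1.23 ± 0.47 (adjusted p = 0.158), where 18.4% of genes were called. Phk-3, a chemosensory protein gene like a10, was called for the difference of strains in males (6.8% of genes called), at -2.46 ± 1.06 (adjusted p = 0.639). For injury in Tau-KO 1 of 18 tests of the other olfactory genes was called, beside 6.27% of all gene tests. For the sex and strain differences of the response it was 1 of 7 and 1 of 6, beside 9.65% and 5.15%. The other kinds of comparison gave no call. Values of these genes without the 16 libraries were not taken.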

How the data were processed

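Reads per gene were analysed for 48 QuantSeq 3′ libraries of fly brains. Per the submitters' processing notes and the study's methods, reads were basecalled with CASAVA 1.8.2, aligned to dm3 with STAR 2.4 and counted with HTSeq, and the authors deposited the counts as whole numbers without normalization. The authors' deposited comparison tables (log2 fold changes, log CPM, likelihood ratios, p-values and adjusted p, from edgeR 3.22.3) were not used. Beside 16995 genes, 5 rows that name no gene took 23.1 to 52.8% of a library's counts. They were left out of every step.

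Low genes were removed by filterByExpr, TMM factors were computed, and glmQLFit and glmQLFTest were run in edgeR 4.0.16 (R 4.3.3). The model had 1 mean for each group and no other term. Each strain was fitted on its 24 libraries (5477 genes in w1118, 5015 in Tau-KO) and strain contrasts on all 48 (5821 genes). A gene was called where it changed by more than 1 on the log2 scale, up or down, and its unadjusted p was under 0.05, as in the study's figures, and separately with an adjusted p under 0.05. The fitting code was tried on simulated counts of independent libraries at a single dispersion. These held no libraries that stand apart, so the trial does not bear on the p-values given here. The biological coefficient of variation was 0.472, 0.390 and 0.447 in the 3 fits. Gene names were matched by symbol, for 53 of 53 members.

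Values per library are given for the 5 members of highest median and for every called member, in groups by role. The members, lists and rules were chosen with earlier results of these data known, and no list is taken as independent evidence. Each pair of libraries was compared by a chi-square, divided by its degrees of freedom, on genes whose summed count reached 20. Replicate numbers are shared between groups. Deviations of same-numbered libraries from their group means, over 2000 genes, correlated over 0.1 in all 3 pairs in 1 of 12 comparisons, w1118 males at 1 hr (0.447, 0.660 and 0.195), where the block changed no member call. Nothing in the labels says that a number marks a shared day or batch, so p-values measure the spread between these libraries.

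Alternatives were DESeq2's size factors, DESeq2 1.42.0, no filter, the replicate block, each library left out in turn, fits of the 6 libraries of a comparison, at least 3 reads for detection, plain CPM, and fits without libraries under 100000 counts or without those over 4 in chi-square per degree of freedom. A fit of only these last libraries was added after seeing the data. It had 1 mean for each strain and labelled sex, with controls and all times after injury pooled. No sequences are printed because none was in the sources used here.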

Additional observations from a re-analysis of the deposited data

Results flagged for a closer look

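The averaged response of a10 to injury in Tau-KO differed between females and males by 1.54 ± 0.70 on the log2 scale (edgeR unadjusted p = 0.0382, adjusted p = 0.212). The difference missed the threshold without replicate 1 (1.67) or 2 (0.55) and passed without replicate 3 (2.26, adjusted p = 0.496).

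Obp18a in Tau-KO at 4 hr lay above all controls in females (97.7, 109 and 98.8 CPM against 81.9, 81.9 and 86.7 CPM) and below all controls in males (45.8, 74.3 and 63.3 CPM against 76.9, 76.4 and 90.7 CPM). The log2 fold changes differed by 0.71, and this difference at a single time was not tested.

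Obp18a in males at 4 hr lay above all controls in w1118 (94.7, 92.5 and 96.5 CPM against 67.1, 68.1 and 82.6 CPM) and below them in Tau-KO. The log2 fold changes differed by 0.81, which was not tested either. The lowest of the Tau-KO values rested on 7 reads.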

How the results depend on the processing

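Members called, at an unadjusted p, numbered 1 for injury in w1118, 3 in Tau-KO, 1 for averaged injury, 1 for the sex difference of the response, 1 between the sexes, 0 between the strains and 0 for the strain difference of the response, with 0 at an adjusted p. DESeq2, DESeq2's size factors and the 6-library fits left each count within 1.5 times of these. In the 6-library fits, however, the w1118 call was Obp57c in females at 4 hr (1.38) and not Obp99a, and in Tau-KO males Obp19d at 4 hr was lost while Obp28a (-1.64) and Obp99b (2.09) at 2 hr were gained. DESeq2 also gained Obp28a at 2 hr (-1.69). Without the filter on low counts they were 2 (w1118), 7 (Tau-KO), 3 (averaged) and 1 (strain difference of the response), with 2, 1 and 1 at an adjusted p in Tau-KO, in averaged injury and in the sex difference of the response, all of them Obp99b. There a10 (-1.32) and Obp19d (-1.18) missed the threshold. Without libraries under 100000 counts they were 6, with 1 at an adjusted p, in Tau-KO, 2 for averaged injury, 2, with 1 at an adjusted p, for the sex difference, and 2 for the strain difference of the response. The replicate block gave 0 for the sex difference and changed no other count of calls by over 1.5 times. Without the 16 libraries that stood apart there were 2 in w1118 (Obp28a at 2 hr and Obp57c at 4 hr, both in females, beside 2.14% of all gene tests), 4 in Tau-KO (Obp83a in males at 3 times and Obp57b in females at 4 hr, beside 4.12%), 1 each for averaged injury (2.54%) and the sex difference of the response (4.11%), both Obp83a, 0 between the sexes (2.86%) and 2 for the strain difference of the response (Obp99d and Obp83a, 4.18%). Obp28a, Obp19d and a10 were not called in Tau-KO there. With only those 16, chosen after seeing the data and with controls and times pooled, 2 were called between the strains. They were Obp19d and Obp99b in females, 2 of 12 members beside 6.15% of genes. Between the sexes 1 was called (Obp99b in w1118). The share of all genes called was computed only for the main fits, those without the 16 libraries and that with only the 16. Counts of the other alternatives, single libraries left out included, stand without it. The fit without the filter kept every gene with at least 1 read, so its counts rest on more member tests.

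Direction was followed for the called member results and a chosen set of others, not for every member test. Among these it turned only in the fit without the 16 libraries. It did so for Obp99a in w1118 females at 2 hr (-0.075). Obp99b turned in Tau-KO males at 1 hr (-0.12), at 4 hr (-0.11) and on average (-0.063). Obp44a turned in Tau-KO males at 4 hr (0.26) and in the sex difference of the response (-0.50). The fit leaves 1 library of the Tau-KO male controls and 1 of the w1118 females at 2 hr, which are assumed to vary like the other groups. The cause was not tested. With single libraries left out, counts ranged from 0 to 2 in w1118 (0 without control female 1) and from 2 to 6 in Tau-KO (0 to 1 at an adjusted p, the 1 being Obp44a without control male 1). With a replicate number left out they ranged from 1 to 2 for averaged injury and from 0 to 1 for the sex difference, between the sexes, between the strains and for the strain difference of the response. The median number of members detected was 14 when at least 3 reads were required. Depth limits the 17 members with under 100 reads, most of which did not pass the filter and were not tested.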
